A study of Mus musculus with 18 samples.

Results

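Cytochrome P450 enzymes of families 1 to 4 are the heme-containing monooxygenases with which the liver oxidises drugs, pollutants, steroids and fatty acids. On 18 arrays of mouse liver, 65 of 45037 probe sets that are not controls carried the symbol of such a gene, and they covered 52 genes. They were taken by symbol alone (Cyp, a family number from 1 to 4, a letter and digits), without Cyp2e1, Cyp2a4, Cyp2a5, Cyp2a12 and Cyp2a22 and without probe sets that map to several genes. Of the 65, 53 probe sets (44 genes) were bright enough to be tested, out of 27022 tested probe sets on the whole array. Of the other 12, 3 belong to genes with another tested probe set (Cyp1b1 and Cyp4f16), and 9 are those of Cyp2b19, Cyp2c65, Cyp2j11, Cyp2j13, Cyp2s1, Cyp3a16, Cyp4f18 and Cyp4x1, whose signals reached at most 31.9 on any array.

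The livers came from male Hmgn1-/- (KO) and Hmgn1+/+ (WT) mice, which differ in HMGN1, a nucleosome-binding protein. Each genotype was taken without injection at 4 weeks, or at a labelled 12 weeks with an injection, given at 4 weeks of age, of saline or of N-nitrosodiethylamine (DEN) at 10 µg per g body weight, with 3 arrays in each of the 6 groups. DEN is a liver carcinogen that P450 enzymes activate, chiefly Cyp2e1, which the symbol rule leaves out. KO and WT animals descended from Hmgn1+/- crosses and were then bred as separate homozygous lines, so that genotype and line cannot be told apart. The labels do not settle whether the 12 weeks are counted from birth or from the injection, and they do not say that arrays of a group are separate animals. The p-values therefore measure the spread between these samples, which may be technical. The DEN arrays differ from the 4-week arrays in age and injection together. Hmgn1 itself did not check the labels: its brightest probe set had signals of 6503 to 6864 on the KO and 6083 to 7948 on the WT 4-week arrays, and the KO minus WT log2 difference was -0.04 at 4 weeks (SE 0.10, adjusted p = 0.898), -0.04 with saline and 0.01 with DEN. What the allele removes from the gene is not given.

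Values are the deposited MAS5 signals, and differences are on the scale of log2(signal + 16). A member is said to have risen or fallen where limma's adjusted p, taken over all 27022 tested probe sets, was under 0.05. Where a gene has several tested probe sets they are lettered A, B and C. A signal depends on the probes, so signals are compared between arrays and never between probe sets, and probes may also bind RNA of near-identical paralogs in the 2c, 2d, 3a and 4a subfamilies. In whole liver, fewer cells of a type and less RNA per cell cannot be told apart. The 4 hepatocyte markers on the array all passed the filter, with summed signals of 132980 to 142750 on the KO and 127540 to 139630 on the WT 4-week arrays. The 6 saline arrays stood apart: their highest signals were 16720 to 21752, against 46967 to 60173 on the other 12, and their hybridisation controls averaged 7.91 to 8.33 on the log2 scale, against 10.3 to 11.1. Comparisons with saline arrays are therefore given also with quantile-normalized values, which force the same distribution on each array.

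In the liver, many P450 genes of families 1 to 3 answer to ligand-activated receptors. AHR drives Cyp1 genes, CAR the Cyp2b and several Cyp2c genes, and PXR the Cyp3a genes, while PPAR-alpha drives the Cyp4a genes. Growth hormone, whose secretion differs between male and female rodents, sets sex-biased members such as Cyp2d9 in males and Cyp2b9 and Cyp3a44 in females. The tested genes lie in clusters, with 10 on chromosome 19, 8 on chromosome 15, 6 each on chromosomes 4, 7 and 17, 4 on chromosome 5, 2 on chromosome 9 and 1 each on chromosomes 3 and 8.

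Promoters are shown for 4 genes on which the results turn. Cyp2c70 is the member with the smallest adjusted p between genotypes. Cyp2c50 is a member of the same gene cluster that was not called between genotypes. Cyp1a2 differed between DEN and 4-week WT livers, and the saline differences of Cyp3a11 changed sign with the normalization. The sequences are the 250 bases before the gene start in RefSeq (GRCm38.p6), written 5′ to 3′ on the gene's own strand; 41 of the 52 genes had a promoter in that table. They lie at chr19:40187287-40187536 (minus strand), chr19:40089429-40089678 (plus strand), chr9:57683656-57683905 (minus strand) and chr5:145879855-145880104 (minus strand). Capitals mark exact matches on either strand to any of 4 motifs. AGGTCA is a half-site of nuclear receptors. CAAAGTCCA is a form of the HNF4 site. GCGTG is the core that AHR binds. TATAAA is a TATA box.
Cyp2c70: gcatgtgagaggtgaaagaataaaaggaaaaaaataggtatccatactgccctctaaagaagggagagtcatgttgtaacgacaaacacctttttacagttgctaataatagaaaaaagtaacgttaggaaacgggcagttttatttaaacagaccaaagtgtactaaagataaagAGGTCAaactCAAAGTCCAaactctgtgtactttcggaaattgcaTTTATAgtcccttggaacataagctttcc
Cyp2c50: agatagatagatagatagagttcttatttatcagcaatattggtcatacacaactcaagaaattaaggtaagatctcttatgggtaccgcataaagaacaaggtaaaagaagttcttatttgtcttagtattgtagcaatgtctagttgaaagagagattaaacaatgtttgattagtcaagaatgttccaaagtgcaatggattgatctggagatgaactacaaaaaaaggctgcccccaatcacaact
Cyp1a2: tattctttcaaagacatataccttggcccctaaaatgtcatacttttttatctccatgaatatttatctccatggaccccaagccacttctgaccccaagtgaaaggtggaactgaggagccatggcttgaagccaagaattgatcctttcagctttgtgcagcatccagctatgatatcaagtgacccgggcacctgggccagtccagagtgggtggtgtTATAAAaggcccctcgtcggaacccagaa
Cyp3a11: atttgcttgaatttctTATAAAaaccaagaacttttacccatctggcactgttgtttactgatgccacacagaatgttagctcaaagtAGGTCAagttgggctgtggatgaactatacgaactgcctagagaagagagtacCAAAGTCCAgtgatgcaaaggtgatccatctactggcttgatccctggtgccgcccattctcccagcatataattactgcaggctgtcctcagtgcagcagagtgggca
Counted back from the base before the start as -1, the Cyp2c70 window holds AGGTCA at -74, CAAAGTCCA at -64 and TATAAA on the opposite strand at -29, and no marked letters overlap. The Cyp3a11 window holds AGGTCA at -162, CAAAGTCCA at -109 and TATAAA at -234. The Cyp1a2 window holds TATAAA at -29, and none of the 4 motifs is in the Cyp2c50 window. Among all 32851 promoter windows of this length in the table, CAAAGTCCA is in 0.384%, AGGTCA in 14%, GCGTG in 28.2% and TATAAA in 12.4%. Of the 41 member genes, 5 hold CAAAGTCCA (Cyp2c65, Cyp2c68, Cyp2c70, Cyp3a11 and Cyp3a16), 11 hold AGGTCA, 10 hold GCGTG and 15 hold TATAAA. The motifs were chosen with these sequences in view, and a match is a description of letters only.

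The first comparison set the KO line beside the WT line in young, uninjected liver. Between KO and WT at 4 weeks, 3 of the 53 tested members passed the threshold (5.66%), against 2.26% of all tested probe sets (1.27% up, 0.992% down): Cyp2c70 and Cyp4a31 rose and Cyp2j5 fell. The median member differed by 0.05, and the median of all tested probe sets by 0.02. The arrays of both groups did not overlap for 11 members, of which 7 were higher and 4 lower in KO, against 19.5% of all tested probe sets.

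Cyp2c70 makes muricholic acids, the 6-hydroxylated bile acids of mice and rats. Its signal was 10857, 11094 and 10487 on the KO arrays at 4 weeks, against 6448, 5693 and 6503 on the WT arrays. Every KO array lay above every WT array, with a gap wider than either group's range. The log2 difference was 0.80 (SE 0.10, 95% interval 0.60 to 1.002, adjusted p = 0.00012). The gene is at chr19:40153361-40187286. With quantile-normalized values the difference was 0.77 (adjusted p = 0.000102), and it stayed past the threshold under all 13 alternative settings and when any of the 6 arrays was left out.

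The other members of the Cyp2c cluster did not pass the test. Cyp2c50 had 17151, 15922 and 15441 on KO arrays and 14196, 17760.1 and 15815 on WT arrays, with overlap and a difference of 0.03 (adjusted p = 0.944). Cyp2c29, a drug-metabolizing member that CAR induces, had 13980.2, 14134 and 14749 on KO arrays and 14637, 13892 and 15698 on WT arrays, again with overlap and a difference of -0.04 (adjusted p = 0.879). Cyp2c68 was higher on each KO array, at 4266, 4910.5 and 4461, than on the WT arrays, at 4012, 3108 and 3800.2. Its difference of 0.33 (adjusted p = 0.128) did not pass. Cyp2c54 was also higher on each KO array and missed the threshold at 0.22 (adjusted p = 0.385). Cyp2c39 ran the other way, with 11.1, 21.5 and 25.2 on KO and 45.7, 37.0 and 44.3 on WT arrays and a difference of -0.75 (adjusted p = 0.187); these signals are close to the filter, which removed probe sets averaging below about 15.5. The 10 tested members of the 2c subfamily thus held 1 rise and no fall, with a median difference of 0.04.

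Cyp2j5 oxidises arachidonic acid to epoxides, and its probe sets disagreed. Probe set B had 911, 802 and 886 on the KO arrays, against 1187, 1162 and 1058 on the WT arrays. All KO arrays lay lower, and the difference was -0.39 (SE 0.08, 95% interval -0.55 to -0.22, adjusted p = 0.011). Probe set A had 5435, 5682 and 5535 on KO arrays and 5832, 4616 and 5474 on WT arrays, which overlap, with a difference of 0.07 (adjusted p = 0.772). The fall is therefore that of 1 probe set, and without the second KO array it was -0.33 (adjusted p = 0.068).

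Cyp4a31 belongs to the 4a subfamily of fatty acid omega-hydroxylases. Its probe set B had 161, 203 and 183 on KO arrays, against 94.3, 97.8 and 105 on WT arrays, without overlap and with a difference of 0.78 (SE 0.20, 95% interval 0.36 to 1.20, adjusted p = 0.0445). This call did not survive the omission of any 1 of the 6 arrays: the difference then ran between 0.71 and 0.86, with an adjusted p of 0.0771 without KO array 1, 0.153 without KO array 2, 0.123 without KO array 3, 0.115 without WT array 1, 0.0823 without WT array 2 and 0.0993 without WT array 3. With quantile-normalized values the difference for probe set B was 0.74 (adjusted p = 0.0594), which did not pass. Probe set A had 58.0, 53.2 and 56.8 on KO and 55.1, 59.1 and 47.5 on WT arrays, which overlap, and a difference of 0.05 (adjusted p = 0.936). Cyp4a14, the brightly measured 4a member, was at 8588, 8725 and 9096 on KO and 7342, 9452 and 8198 on WT arrays, with a difference of 0.09 (adjusted p = 0.915).

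**Figure D1:**
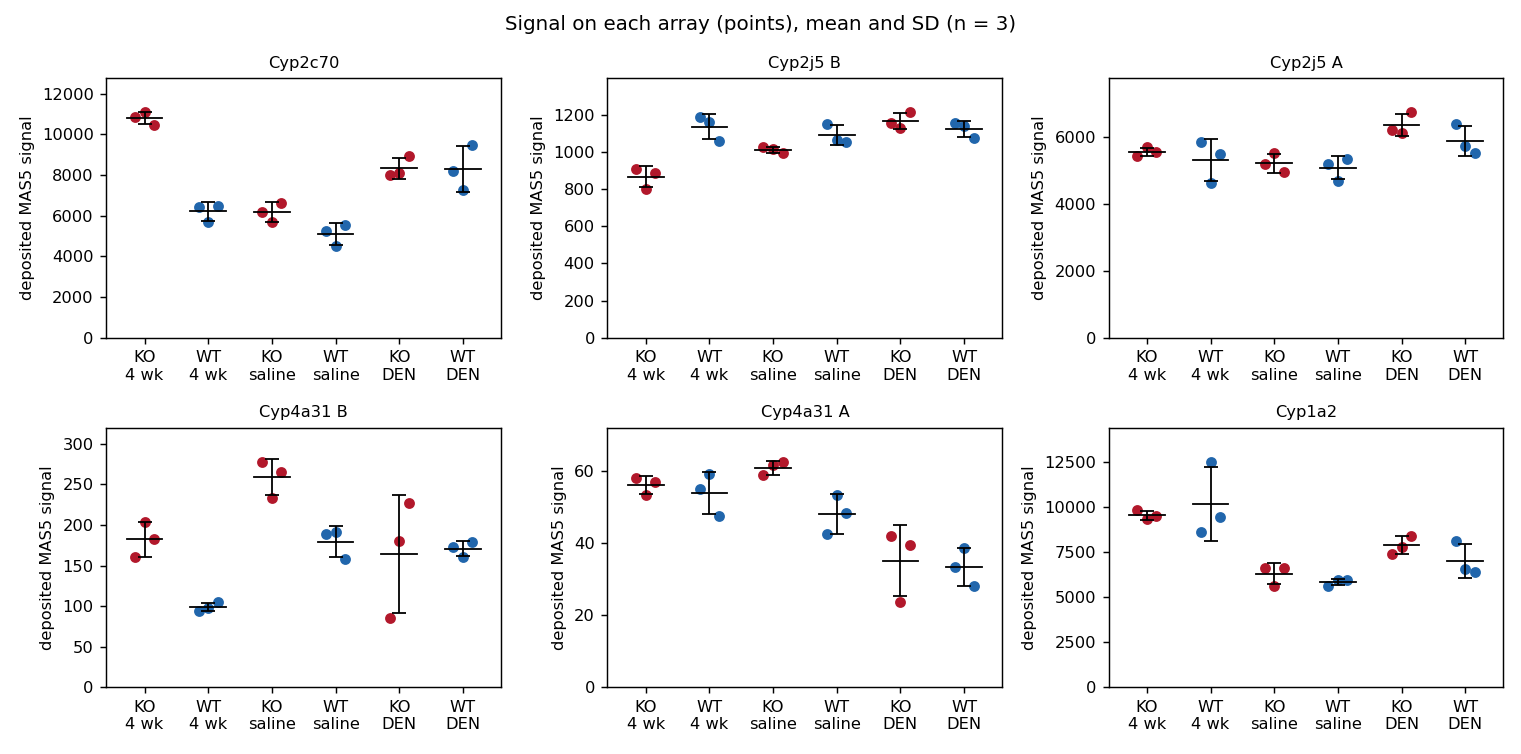
Deposited MAS5 signal (vertical axes, linear) of Cyp2c70, both probe sets of Cyp2j5, both of Cyp4a31, and Cyp1a2 on each array, by group (horizontal axes). Points are arrays, black lines the mean and SD of 3 arrays; KO is red and WT blue. The 4-week KO arrays of Cyp2c70 sit between 10487 and 11094, above all other groups, while the DEN groups overlap each other.

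The remaining families showed no call at 4 weeks. Among AHR-driven genes, Cyp1a2, which oxidises aromatic amines and caffeine, had 9834, 9344 and 9531 on KO arrays and 8632, 12524 and 9452 on WT arrays, with a difference of -0.07 (adjusted p = 0.823). Cyp1a1, the inducible partner of Cyp1a2, stayed near the filter, at 28.7, 40.4 and 35.6 on KO and 10.5, 53.9 and 22.3 on WT arrays. So did Cyp1b1, at 2.85, 22.4 and 26.3 on KO and 3.96, 56.1 and 28.4 on WT arrays. Both groups overlap for each of the 3 Cyp1 genes.

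Among CAR and PXR targets, Cyp2b10 (probe set B) had 209.7, 188 and 165 on KO arrays and 178, 194 and 161 on WT arrays, a difference of 0.07 (adjusted p = 0.925). Cyp3a11, the main hepatic drug-oxidising Cyp3a enzyme of mice, had 31318, 28866 and 33407 on KO arrays and 26440.4, 30580.4 and 29258 on WT arrays, a difference of 0.12 (adjusted p = 0.646). Both overlap between genotypes. Of the sex-biased members, Cyp2d9, a male steroid 16-alpha-hydroxylase, was at 14516, 12793 and 12209 in KO and 11458, 12140.4 and 14371 in WT (0.06, adjusted p = 0.851). The female-biased Cyp2b9 stayed near the filter, at 24.9, 25.7 and 30.6 in KO and 8.73, 25.8 and 12.6 in WT, and Cyp3a44 was at 56.2, 75.3 and 92.7 in KO and 56.0, 23.4 and 36.9 in WT, where each KO array lay higher and the difference of 0.75 (adjusted p = 0.138) did not pass.

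The naphthalene-activating Cyp2f2 was higher on each KO array, at 15679, 15636 and 15412, than on the WT arrays, at 12264, 12601 and 14122, and just missed the threshold with 0.26 (adjusted p = 0.0991). Cyp2r1, a vitamin D 25-hydroxylase, had 264, 365 and 316 in KO and 437, 299 and 331 in WT (-0.16, adjusted p = 0.619). Cyp4f14, which hydroxylates the side chain of vitamin E, had 1031, 1127 and 1035 in KO and 1248, 851 and 1076 in WT (0.02, adjusted p = 0.944). Cyp4v3, the mouse counterpart of human CYP4V2, a fatty acid omega-hydroxylase, had 8154, 7375 and 7107 in KO and 5839, 7994 and 6658 in WT (0.15, adjusted p = 0.57). Cyp4b1 was lower on each KO array, at 447, 456 and 433 against 662, 481 and 578 in WT, with -0.34 (adjusted p = 0.209). Cyp4f13 (0.27) was higher and Cyp4f39 (-0.53) lower on each KO array, and neither passed.

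Summed markers of other cells differed between genotypes at 4 weeks. The summed signal of 5 Kupffer cell markers was 1851 to 1993 on KO arrays and 2660 to 3014 on WT arrays, and that of 5 stellate cell markers 3264 to 3312 on KO arrays and 4273 to 4450.0 on WT arrays; 0 of the 5 Kupffer cell markers and 1 stellate cell marker, lower in KO, passed the test. The 3 pancreas markers on the array, of which Cpa1 lay below the filter, summed to 713 to 776 on KO and 383 to 505 on WT arrays, and 1 of them rose. Sums did not overlap either for 5 endothelial markers (2163 to 2254 on KO and 2322 to 2467 on WT arrays), with 0 calls. The median difference of these 5 markers was 0.06, in the direction opposite to their sum. For 5 cholangiocyte markers the sums were 116 to 143 on KO and 83.1 to 113 on WT arrays, without overlap and with 0 calls. Of the cholangiocyte markers, Krt19, Krt7 and Cftr lay below the filter. The 4 hepatocyte markers had a median difference of 0.04 with 0 calls. Their part in the Cyp2c70, Cyp2j5 and Cyp4a31 differences was not tested. The 3′ to 5′ signal ratio of Gapdh, a sign of RNA integrity, was highest on KO array 1 (1.70) and WT array 2 (2.19) at this age; without both, 1 member (Cyp2c70) still passed, Cyp2j5 was at -0.40 (adjusted p = 0.0512) and Cyp4a31 at 0.86 (adjusted p = 0.127).

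The same genotype comparison was made in injected animals. With DEN, limma called 0 of the 53 members, against 0.0074% of all tested probe sets, and 5 members had an unadjusted p under 0.05, against 8.97% of all. With saline it called 0 members, against 0.0111% of all, and 3 had an unadjusted p under 0.05, against 5.28% of all. With quantile-normalized values the saline comparison also called 0, and 8 members had an unadjusted p under 0.05, against 4.97% of all. These comparisons thus called almost nothing on the whole array, and a count of 0 among the members does not set them apart. With saline, some marker sums did not overlap between genotypes, with 0 calls. Lower in KO were Kupffer cells (2112 to 2621 against 2624 to 3371) and stellate cells (3152 to 3641 against 3721 to 4025). So was endothelium (2027 to 2193 against 2234 to 2351). Higher in KO were pancreas (696 to 751 against 539 to 643) and lymphocytes (68.5 to 82.7 against 60.1 to 64.4). Their part in the saline differences was not tested.

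Cyp2c70 had 7995, 8095 and 8932 on the KO arrays with DEN, against 8181, 7245 and 9485 on the WT arrays, which lie on both sides of the KO values. The difference was 0.01 (SE 0.10, 95% interval -0.19 to 0.22, adjusted p = 0.98). With saline it had 6207, 5700.3 and 6648 on KO arrays and 5233, 4522 and 5545 on WT arrays. Every KO array was higher there, and the difference of 0.28 (SE 0.10, 95% interval 0.08 to 0.48, adjusted p = 0.856) did not pass. The genotype difference with DEN minus that at 4 weeks was -0.79 (SE 0.14, 95% interval -1.07 to -0.50, adjusted p = 0.0111). Cyp2c70 was the only member past the threshold in that test (1 of 53, or 1.89%, against 0.762% of all tested probe sets). With centred array medians the value was -0.70 (adjusted p = 0.0675) and without the intensity trend -0.79 (adjusted p = 0.072). The genotype difference with saline minus that at 4 weeks was -0.52 (SE 0.14, 95% interval -0.81 to -0.23, adjusted p = 0.999), and that with DEN minus that with saline was -0.27 (SE 0.14, 95% interval -0.55 to 0.02, adjusted p = 0.64). Neither passed, so that the change since 4 weeks was not shown to be particular to DEN. With quantile-normalized values the KO minus WT difference with saline was 0.36 (adjusted p = 0.401). On that scale saline against 4 weeks gave -0.41 (95% interval -0.68 to -0.14). DEN against saline gave -0.37 (95% interval -0.64 to -0.11, adjusted p = 0.547), and none of these passed.

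For Cyp2j5 (probe set B) the genotype difference with DEN was 0.06, from 1158, 1130.3 and 1214 on KO and 1153, 1141 and 1073 on WT arrays. The change of the genotype difference since 4 weeks was 0.44 (adjusted p = 0.0653), which did not pass. For Cyp4a31 (probe set B) the KO arrays with DEN were widely spread, at 85.4, 181 and 227, around the WT arrays at 173, 161 and 179.5. Its genotype difference was -0.14 with DEN, and the change since 4 weeks was -0.93 (adjusted p = 0.139). With saline it was higher on each KO array, at 278, 234 and 266 against 189, 192 and 158 in WT, with a difference of 0.49 (adjusted p = 0.942). The test of the saline against the 4-week genotype difference called 0 members (0.0037% of all tested probe sets), with 4 at an unadjusted p under 0.05, against 4.02% of all. That of the DEN against the saline genotype difference also called 0 members (0% of all), with 3 at an unadjusted p under 0.05, against 8.03% of all.

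The largest genotype differences with DEN were those of Cyp1b1 and Cyp1a1, whose signals lay near the filter. Cyp1b1 was at 69.5, 42.8 and 17.9 on KO arrays and 2.13, 19.3 and 11.6 on WT arrays, a difference of 1.09 (adjusted p = 0.506). Cyp1a1 was at 32.0, 60.8 and 19.4 on KO arrays and 10.4, 19.7 and 11.3 on WT arrays, a difference of 0.78 (adjusted p = 0.465). Both groups overlap for each gene. Cyp2c55 was at 259, 293 and 271 on KO arrays and 280.2, 159 and 193 on WT arrays, also with overlap (0.39, adjusted p = 0.412). Summed fat markers reached 1269 on 1 KO array with DEN and 819 on 1 KO array with saline, against at most 97.9 on the WT arrays of those treatments; their part in these differences was not tested.

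**Figure D2:**
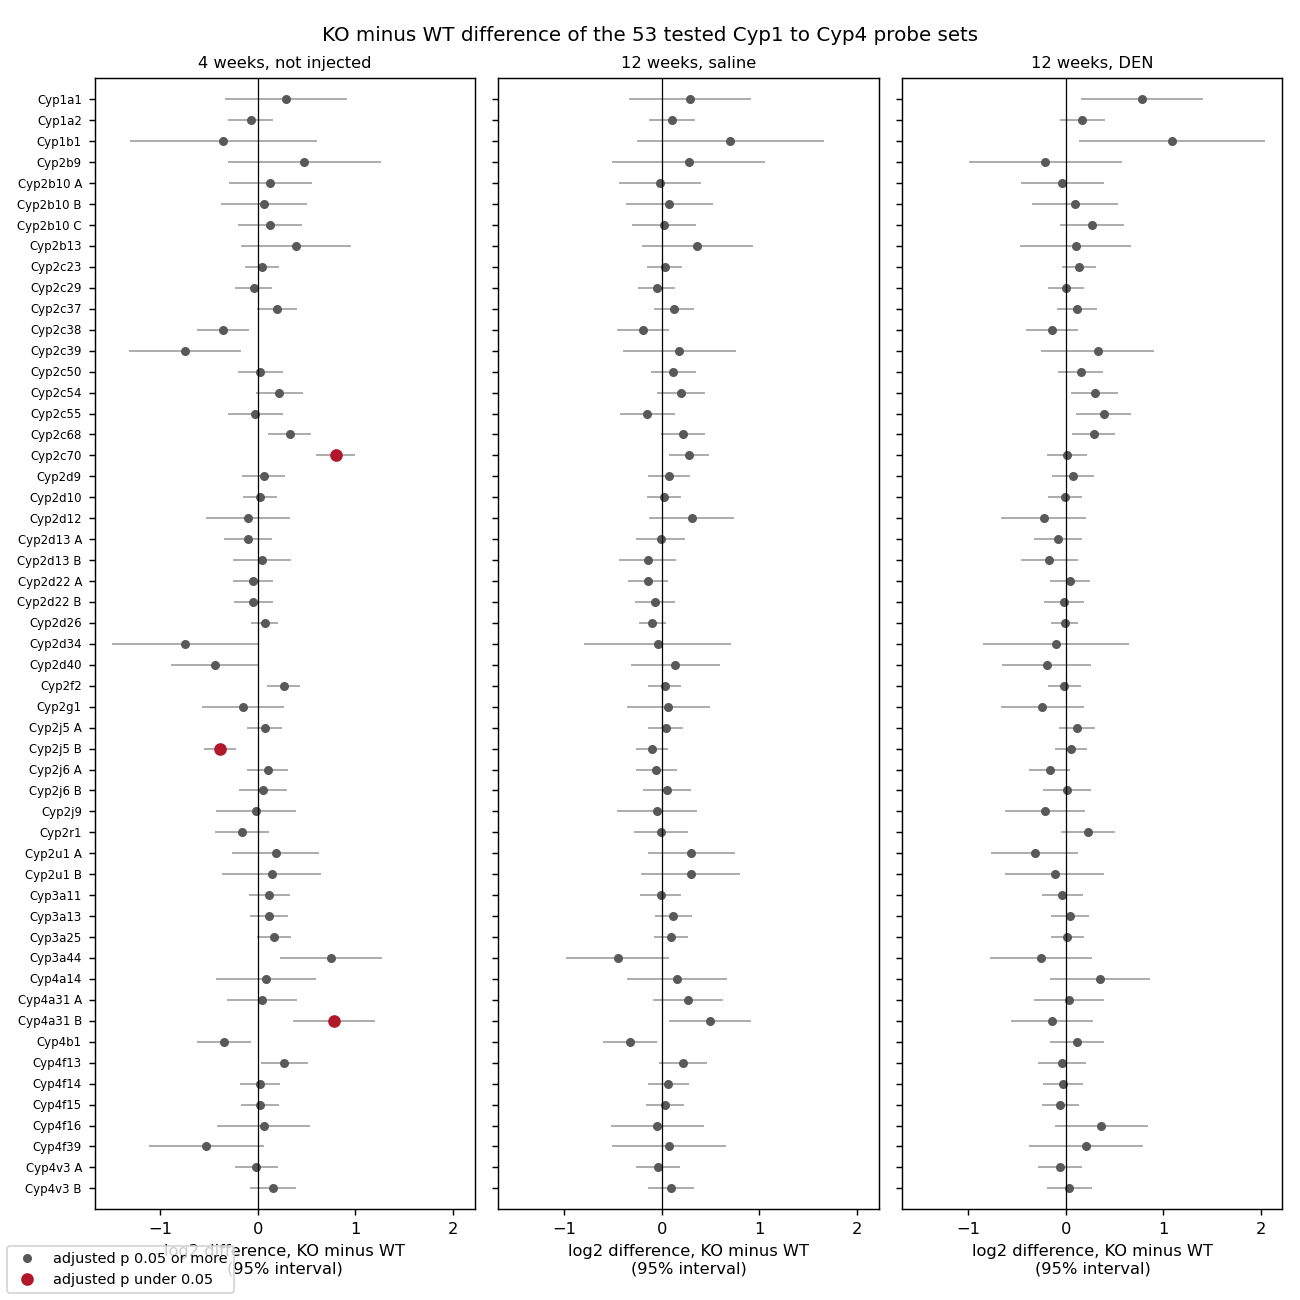
KO minus WT difference on the log2 scale (horizontal axes, with 95% intervals, n = 3 arrays per group) for each of the 53 tested probe sets (rows), at 4 weeks, with saline and with DEN. Red points have an adjusted p under 0.05: Cyp2c70 (0.80), Cyp2j5 B (-0.39) and Cyp4a31 B (0.78) at 4 weeks, and none in either injected group.

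The second comparison set the 12-week DEN livers beside those at 4 weeks within each genotype. In KO, 4 of 53 members passed, against 8.24% of all tested probe sets (3.53% up, 4.71% down): Cyp2j5 and Cyp2j6 rose, and Cyp2c70 and Cyp2j9 fell. In WT, 3 of 53 passed, against 4.4% of all (1.97% up, 2.44% down): Cyp2c70 and Cyp2j6 rose and Cyp1a2 fell. The shares of members called were thus 7.55% and 5.66%. Of 5 Kupffer cell markers, 4 rose in KO, with summed signals of 2376 to 4285 with DEN and 1851 to 1993 at 4 weeks; in WT none was called, with 2499.9 to 3649.8 and 2660 to 3014. Stellate cell marker sums were 3493 to 4508 with DEN and 3264 to 3312 at 4 weeks in KO, and 3550 to 3754 with DEN and 4273 to 4450.0 at 4 weeks in WT. The 4 lymphocyte markers on the array, of which Cd3e and Cd79a lay below the filter, summed to 60.5 to 125 with DEN and 49.1 to 56.4 at 4 weeks in KO, and to 73.9 to 80.4 with DEN and 26.5 to 52.2 at 4 weeks in WT. The pancreas sum in WT was 561 to 749 with DEN and 383 to 505 at 4 weeks. The part of these cells in the member differences was not tested.

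The Gapdh 3′ to 5′ ratio moved with this comparison too. It was 0.907 to 0.937 with DEN and 1.345 to 1.704 at 4 weeks in KO, without overlap, and 1.025 to 1.126 with DEN and 1.125 to 2.188 at 4 weeks in WT. Without the 4-week array of highest ratio in each genotype, 1 member was still called in KO, Cyp2j5 (probe set B, at 0.46), and 0 in WT. The other members called with all arrays then lay at adjusted p = 0.0538 to 0.102 in KO and 0.0756 to 0.109 in WT. The share of all tested probe sets called without these arrays is not given. Age and injection cannot be told apart here, and the 4-week arrays are those of the genotype comparison above. The ratio was also higher on the saline than on the DEN arrays, without overlap. With saline it was 1.214 to 1.408 in KO and 1.187 to 1.333 in WT. With DEN it was lower on every KO array than on every WT array. Its part in the DEN minus saline and DEN genotype differences was not tested.

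Cyp2c70 changed in opposite directions. In KO it had 7995, 8095 and 8932 with DEN, against 10857, 11094 and 10487 at 4 weeks, all lower with DEN, a difference of -0.38 (SE 0.10, adjusted p = 0.0207). In WT it had 8181, 7245 and 9485 with DEN, against 6448, 5693 and 6503 at 4 weeks, all higher with DEN, a difference of 0.41 (SE 0.10, adjusted p = 0.0199). The test of that opposition is the same as the genotype test above (-0.79). Each call on its own depended on single arrays: in WT the difference was 0.35 without 4-week array 2 (adjusted p = 0.0928) and 0.31 without DEN array 3 (adjusted p = 0.0887). In KO it was -0.37 without 4-week array 1 (adjusted p = 0.075), -0.36 without 4-week array 2 (0.0586), -0.40 without 4-week array 3 (0.0511), -0.35 without DEN array 1 (0.0633) and -0.35 without DEN array 2 (0.0742). With quantile-normalized values both calls held, at -0.42 (adjusted p = 0.00918) in KO and 0.37 (adjusted p = 0.0246) in WT.

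Cyp2j6 (probe set B), another 2j member, was the only member called in the same direction in both genotypes on either scale. In KO it had 345, 331 and 264 with DEN and 228, 221 and 236 at 4 weeks, a difference of 0.42 (SE 0.12, adjusted p = 0.0318). In WT it had 336, 273 and 320.3 with DEN and 234, 226 and 202 at 4 weeks, a difference of 0.46 (SE 0.12, adjusted p = 0.0312). All DEN arrays lay above all 4-week arrays. Its probe set A was at -0.05 in KO and 0.22 in WT and was called in neither. The KO call fell away without any 4-week array or without DEN array 1 or 2, with differences of 0.35 to 0.44 and adjusted p-values of 0.0709 to 0.116. The WT call fell away without 4-week array 2 or 3 or DEN array 1 or 3, with 0.40 to 0.47 and adjusted p-values of 0.0699 to 0.111.

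Cyp1a2 in WT was at 8129, 6559.8 and 6421 with DEN and 8632, 12524 and 9452 at 4 weeks, all lower with DEN, a difference of -0.52 (SE 0.11, adjusted p = 0.0113). Its highest 4-week value is that of array 2, without which the difference was -0.37 (adjusted p = 0.0621). Without DEN array 2 it was -0.48 (adjusted p = 0.0505). In KO it was at 7429.9, 7822 and 8437 with DEN and 9834, 9344 and 9531 at 4 weeks, also all lower, at -0.28 (adjusted p = 0.131). The difference between genotypes in this change did not pass (0.25, adjusted p = 0.512).

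Among the other 2j genes, Cyp2j5 (probe set B) in KO was at 1158, 1130.3 and 1214 with DEN and 911, 802 and 886 at 4 weeks, all higher with DEN, a difference of 0.43 (SE 0.08, adjusted p = 0.00296), a call that held without any 1 array. In WT it overlapped, at -0.02. Probe set A was at 0.19 (adjusted p = 0.188) in KO and 0.15 (adjusted p = 0.373) in WT. Cyp2j9 in KO was at 58.7, 108 and 114 with DEN and 177, 124 and 188 at 4 weeks, all lower with DEN, at -0.73 (SE 0.20, adjusted p = 0.026). The lowest of its DEN values is that of array 1, without which the difference was -0.47 (adjusted p = 0.133), and it was -0.66 (0.109) without 4-week array 1 and -0.62 (0.114) without 4-week array 3. In WT it was all lower as well, at 97.7, 111 and 115 with DEN and 201, 173 and 125 at 4 weeks, with -0.53 (adjusted p = 0.13).

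With quantile-normalized values the KO comparison called 6 members, against 8.22% of all, adding Cyp2r1 (0.44, adjusted p = 0.0459) and probe set B of Cyp4v3 (-0.38, adjusted p = 0.0436). Cyp2r1 in KO had 402, 435 and 423 with DEN and 264, 365 and 316 at 4 weeks, all higher with DEN, which gave 0.41 (adjusted p = 0.0595) on the deposited scale. Cyp3a11 differed by -0.06 in KO and 0.09 in WT, with 29095, 29806 and 30744 on KO DEN arrays and 32367, 33271 and 26563 on WT DEN arrays. Cyp4a14 varied widely between arrays with DEN, at 3748, 9044 and 8688 in KO and 4019.7, 7702 and 4548 in WT, and its difference from 4 weeks was -0.40 (adjusted p = 0.343) in KO and -0.67 (adjusted p = 0.128) in WT. Cyp2b10 (probe set B) had 226, 272 and 153 in KO and 263, 238 and 119 in WT with DEN, with 0.17 and 0.13, not called.

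**Figure D3:**
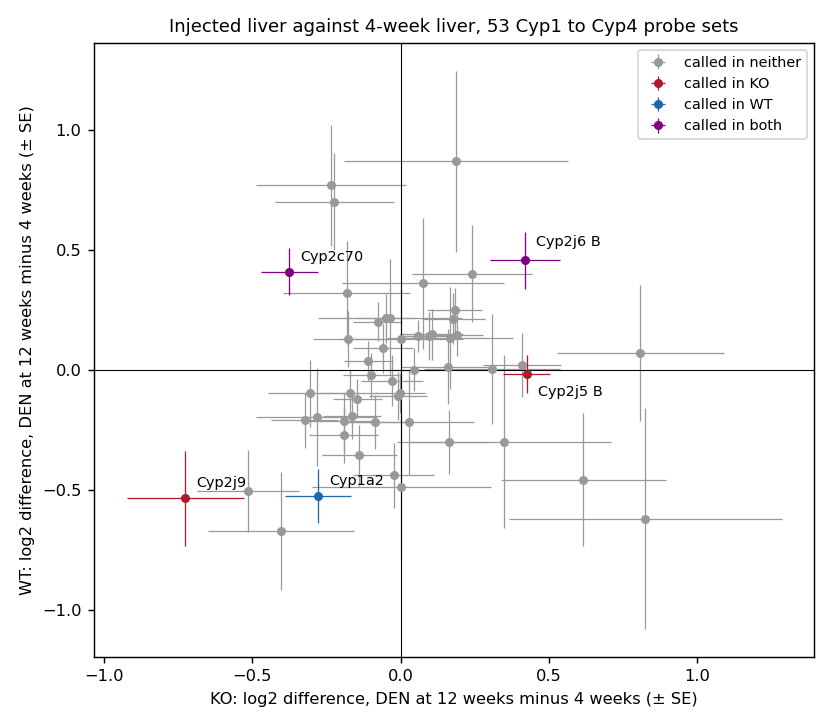
DEN at 12 weeks minus 4 weeks on the log2 scale in KO (horizontal axis) and in WT (vertical axis) for the 53 tested probe sets; bars are the SE of the fitted difference. Colours mark members called in KO, in WT or in both. Cyp2c70 lies in the upper left part (-0.38 in KO, 0.41 in WT) and Cyp2j6 B in the upper right (0.42 in KO, 0.46 in WT).

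The third set of comparisons used the saline arrays. On the deposited scale, saline minus 4 weeks called 20 of 53 members in KO (4 up, 16 down), against 9.94% of all tested probe sets (5.09% up, 4.84% down), and 20 of 53 in WT (5 up, 15 down), against 8.26% (4.22% up, 4.04% down). DEN minus saline called 16 in KO (13 up, 3 down), against 15.1% (6.42% up, 8.65% down), and 11 in WT (10 up, 1 down), against 6.54% (3.4% up, 3.13% down). With quantile-normalized values the counts were 7 in KO and 8 in WT for saline minus 4 weeks, against 7.2% and 5.27% of all. For DEN minus saline they were 4 in KO and 2 in WT, against 10.9% and 3.64%.

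The brightest members held most of these deposited-scale calls: 14 of the 20 in each genotype for saline minus 4 weeks, and 11 of 16 in KO and 9 of 11 in WT for DEN minus saline. All 16 members with a mean log2 signal of 12 or more, a level chosen after the values were seen, were lower with saline than at 4 weeks in both genotypes. Their median difference was -0.66 in KO and -0.63 in WT, where all 659 tested probe sets that bright had medians of -0.45 and -0.47. All 16 were higher with DEN than with saline, with a median of 0.48 in KO and 0.52 in WT, against 0.54 and 0.46 over the 659. How many of the 659 were called or shared these signs was not counted. Whether the counts of calls and signs set the 16 apart from other bright probe sets therefore cannot be said. On the quantile scale 6 of the 16 in KO and 7 in WT were above 0 for saline minus 4 weeks, and 4 in KO and 5 in WT for DEN minus saline. The 6 saline arrays are those with the low hybridisation controls, so the overall array signal and the treatment cannot be told apart. The saline arrays are shared by both kinds of comparison. The Gapdh ratio also separated them from the DEN arrays, as given above.

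Cyp3a11 shows the size of this. It had 14989, 15149 and 14555 on KO saline arrays, against 31318, 28866 and 33407 at 4 weeks, and 15276, 12689.8 and 17404 on WT saline arrays, against 26440.4, 30580.4 and 29258 at 4 weeks. No saline array reached a 4-week or DEN array. On the deposited scale the saline minus 4-week difference was -1.06 in KO and -0.94 in WT. On the quantile scale it was 0.08 (adjusted p = 0.475) in KO and 0.19 (adjusted p = 0.0723) in WT, with the opposite sign and no call. Cyp2c29 had 9179, 9364 and 8818 on KO saline arrays and 9456, 8275 and 10829 on WT saline arrays; its DEN minus saline difference was 0.69 in KO and 0.64 in WT on the deposited scale, and -0.02 and -0.10 on the quantile scale. Cyp2d26 in WT was called lower with saline than at 4 weeks on the deposited scale (-0.34) and higher on the quantile scale (0.21).

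**Figure D4:**
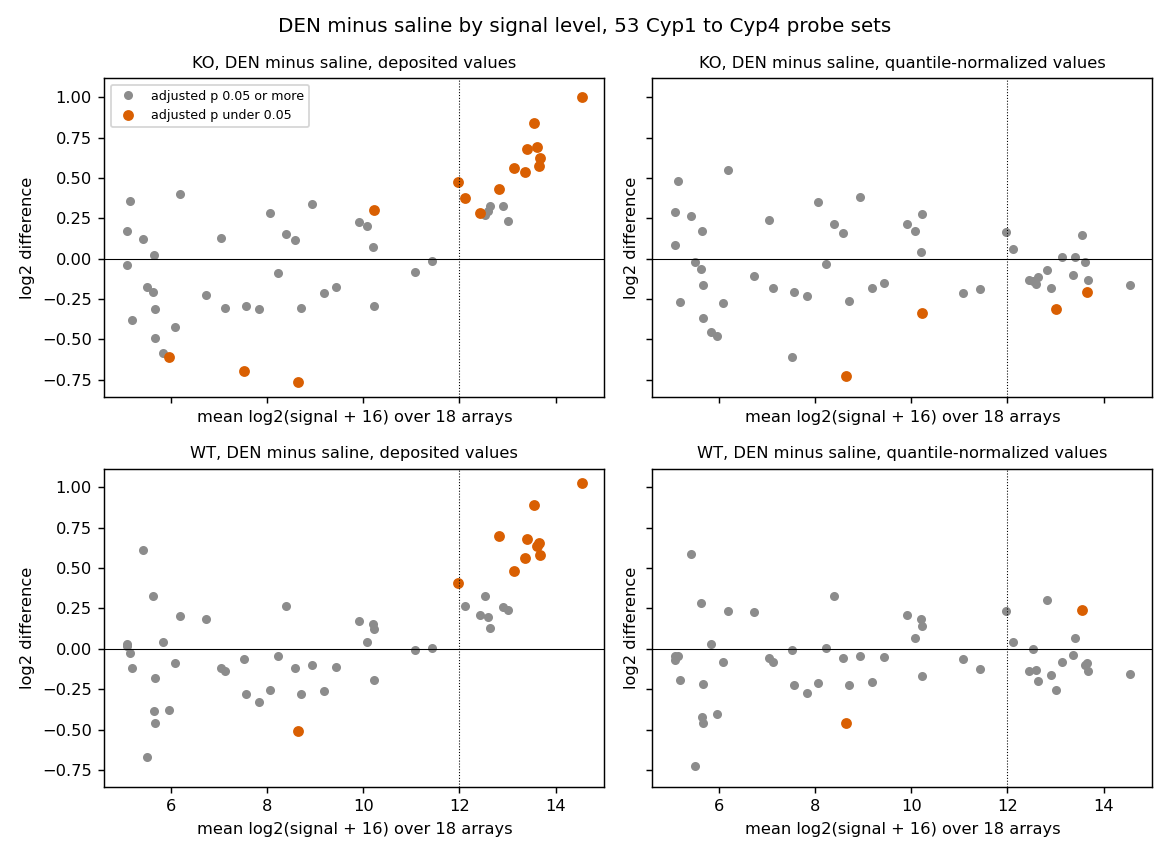
DEN minus saline difference on the log2 scale (vertical axes) against the mean log2(signal + 16) over the 18 arrays (horizontal axes) for the 53 tested probe sets, in KO (top) and WT (bottom), with deposited (left) and quantile-normalized values (right). Orange points have an adjusted p under 0.05, and the dotted line marks 12. All 16 members to its right lie above 0 with deposited values; 4 in KO and 5 in WT do so after quantile normalization.

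A few dimmer members gave the same call on both scales. Cyp4f13, of the 4f subfamily of fatty acid hydroxylases, was highest on the saline arrays. In KO it had 363, 274 and 344 with DEN, against 583, 589 and 521 with saline, without overlap and with a difference of -0.76 (SE 0.12, adjusted p = 0.000103). In WT it had 354, 290.4 and 360.1 with DEN, against 445, 534 and 468 with saline, without overlap and with a difference of -0.51 (SE 0.12, adjusted p = 0.00912). The WT value was -0.41 (adjusted p = 0.0569) without DEN array 2 and -0.44 (0.075) without saline array 2. On the quantile scale the differences were -0.73 (adjusted p = 0.000323) in KO and -0.46 (adjusted p = 0.0262) in WT. Saline minus 4 weeks was 0.59 (SE 0.12, adjusted p = 0.00205) in KO and 0.64 (SE 0.12, adjusted p = 0.000977) in WT, from 4-week signals of 371, 383 and 354 in KO and 293, 277 and 342 in WT.

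Cyp4f14 was likewise higher with saline than at 4 weeks, at 1431, 1409.8 and 1339 in KO and 1293, 1323 and 1366 in WT, with 0.38 (adjusted p = 0.016) in KO and 0.34 (adjusted p = 0.037) in WT. In WT this call fell away without any 1 saline array or without 4-week array 2 or 3, at 0.19 to 0.36 (adjusted p = 0.0721 to 0.202). In KO it fell away without 4-week array 1 or 3 or saline array 1 or 2, at 0.36 to 0.38 (0.0546 to 0.0686). Cyp2j6 (probe set B) rose with saline too, at 324, 368 and 308 in KO and 362, 298 and 300.0 in WT, with 0.51 (adjusted p = 0.00741) and 0.50 (adjusted p = 0.00898). The KO value was 0.44 (adjusted p = 0.0559) without saline array 2, and the WT value 0.45 (0.0527) without 4-week array 3 and 0.42 (0.0765) without saline array 1. Probe set A did not share this: with saline it was lower on every KO array than at 4 weeks, at -0.20 (adjusted p = 0.238), and overlapped in WT, at -0.05 (adjusted p = 0.853). The saline and DEN comparisons of probe set B share their 4-week arrays.

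Cyp2d22, the mouse gene often set beside human CYP2D6, fell with saline on probe set B, at 882, 788 and 739.9 in KO, against 1041, 1066 and 1064 at 4 weeks, and at 897, 865 and 773 in WT, against 1039, 1213 and 1030.5 at 4 weeks. The differences were -0.39 (adjusted p = 0.0122) in KO and -0.37 (adjusted p = 0.0215) in WT, and nearly the same on the quantile scale (-0.40 and -0.38). The KO call fell away without saline array 2 or 3 (-0.38 and -0.34, adjusted p = 0.0522 and 0.0765), and the WT call without 4-week array 2 or saline array 2 or 3 (-0.29, -0.38 and -0.30, adjusted p = 0.103, 0.0539 and 0.116). Probe set A of Cyp2d22 was also lower on every saline array, but in WT its difference of -0.23 (adjusted p = 0.183) was not called. In KO its log2 values were 9.887, 9.988 and 10.083 with saline and 10.397, 10.358 and 10.138 at 4 weeks. Cyp2f2, which is among the brightest members, was called higher with DEN than with saline in WT on both scales, at 0.89 and 0.24. In KO it was called lower with saline than at 4 weeks on both scales. In KO it had 13733, 14900.0 and 15709 with DEN, against 8182, 7822 and 8679.5 with saline. In WT it had 15281, 15631 and 13930.4 with DEN, against 8182, 7358 and 8658 with saline. The groups did not overlap in either genotype. The KO difference was 0.84 on the deposited and 0.15 (adjusted p = 0.167) on the quantile scale.

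Cyp2c70 with saline was at -0.81 in KO and -0.29 in WT relative to 4 weeks, and at -0.35 (adjusted p = 0.0242) and 0.07 (adjusted p = 0.77) on the quantile scale, so that only the KO fall was called on both. Cyp4a31 (probe set B) in WT was higher with saline, at 189, 192 and 158, than at 4 weeks, at 94.3, 97.8 and 105, with 0.76 (adjusted p = 0.0194). That call fell away without 4-week array 1 or 2 or saline array 1 or 2, at 0.72 to 0.76 (adjusted p = 0.0533 to 0.0815). In KO it was higher too, at 278, 234 and 266 with saline and 161, 203 and 183 at 4 weeks, and was not called (0.47, adjusted p = 0.152). Probe set A did not share the WT rise. Its WT log2 values were 5.867, 6.117 and 6.005 with saline and 6.151, 6.23 and 5.988 at 4 weeks, which overlap. In KO its saline values (6.223 to 6.293) all lay above those at 4 weeks (6.113 to 6.21).

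**Figure D5:**
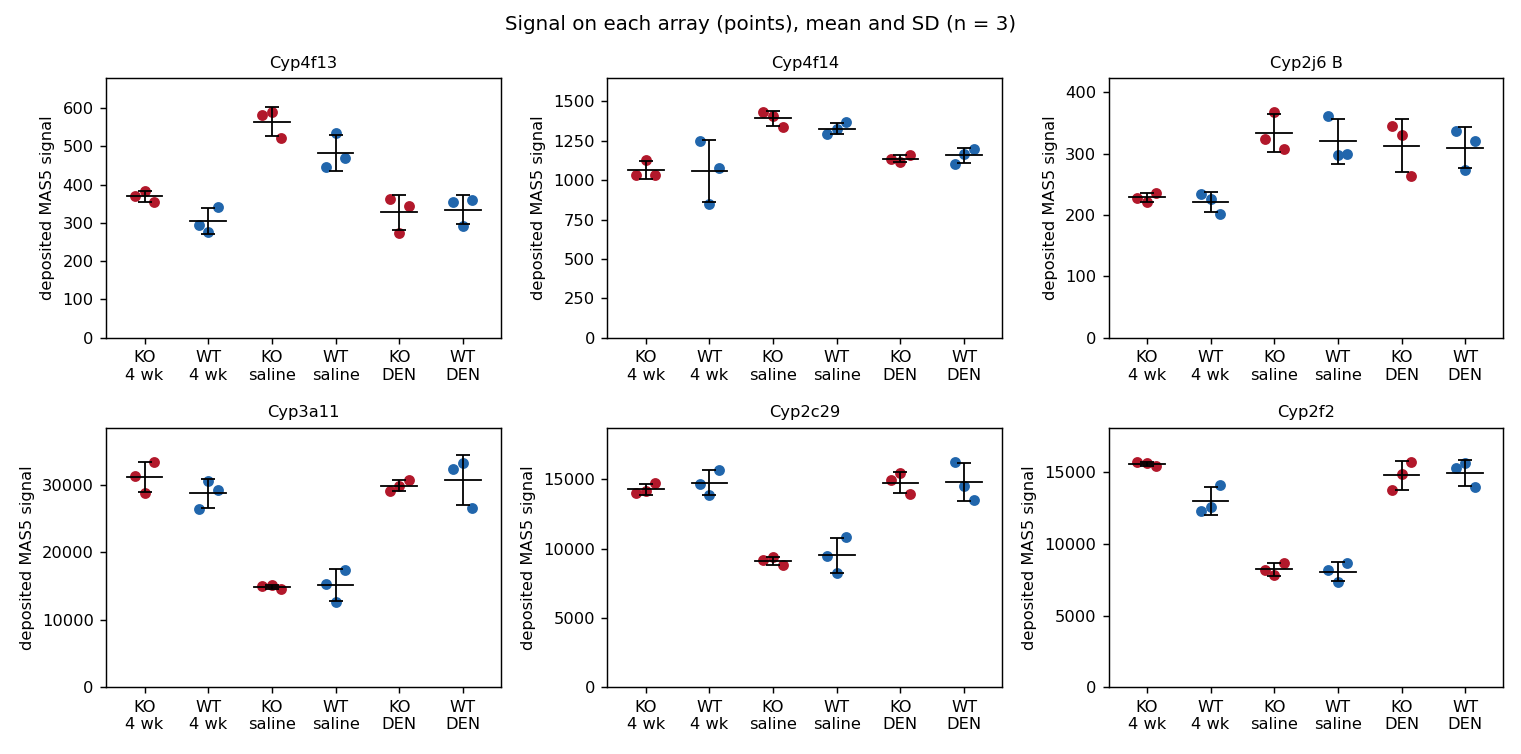
Deposited MAS5 signal (vertical axes, linear) of Cyp4f13, Cyp4f14, Cyp2j6 B, Cyp3a11, Cyp2c29 and Cyp2f2 on each array, by group. Points are arrays, black lines the mean and SD of 3 arrays; KO is red and WT blue. The saline arrays are the highest for Cyp4f13 and Cyp4f14 and the lowest for Cyp3a11, Cyp2c29 and Cyp2f2.

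The spread between arrays was smaller for these genes than for most: the median residual SD was 0.16 on the log2 scale for the 53 members and 0.23 for all tested probe sets. At a mean log2 signal of 12 or more it was 0.13 for the 16 members and 0.11 for the 659 probe sets. Genes with several tested probe sets did not always agree. Between KO and WT at 4 weeks the 3 probe sets of Cyp2b10 were at 0.07, 0.13 and 0.13 and those of Cyp2u1 at 0.18 and 0.14, whereas those of Cyp2j5 (-0.39 and 0.07) and Cyp4a31 (0.78 and 0.05) lay apart.

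Regulators and partners of these enzymes were counted at 4 weeks, KO against WT, over genes (background 3.08% of 12896 genes). None of 7 measured AHR targets and partners, of 14 CAR and PXR genes and targets, of 15 PPAR-alpha targets or of 17 conjugating phase 2 enzymes passed. The representative probe sets of the receptors Ahr (-0.21), Nr1i3 (CAR, -0.04), Nr1i2 (PXR, 0.28) and Ppara (0.28) were not called; another Ppara probe set was, at 0.41 (adjusted p = 0.0134). Of 12 male-biased liver genes 5 rose, namely Egfr (1.71), Ugt2b38 (0.93), Cyp7b1 (0.75), Hsd3b5 (0.70) and Slco1a1 (0.45), with a list median of 0.38, against 0.02 for all genes. Of 11 female-biased genes 0 passed, with a median of -0.25. Of 13 growth hormone signalling genes 2 rose: Bcl6, a repressor of female-biased genes in male liver, at 1.84 (adjusted p = 0.00771), and Hnf4a, a hepatocyte nuclear receptor, at 0.46 (adjusted p = 0.00238). The Hnf4a call is that of its representative probe set; the other 3 probe sets were at 0.30, 0.28 and -0.16 and were not called. The other tested probe set of Bcl6 was at 0.74 (adjusted p = 0.239), and that of Slco1a1 at 0.58 (adjusted p = 0.0696). Of the other 5 tested Egfr probe sets 1 was called, at 1.33, and 4 were not, at -0.35 to 0.46.

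Of 13 electron transfer and heme synthesis genes, Urod fell (-0.36) and the reductase partners were not called. The other Urod probe set was at -0.25 (adjusted p = 0.26) and was not called. Of 14 P450 genes of other families, Cyp7b1, an oxysterol 7-alpha-hydroxylase, rose (0.75), and Cyp7a1, which starts bile acid synthesis, fell by 2.51 on the log2 scale (adjusted p = 3.493e-06), and its second probe set fell too (-1.70, adjusted p = 0.00753). Cyp51, a cholesterol synthesis enzyme, was at -0.44 (adjusted p = 0.044), and missed the threshold with quantile-normalized values (-0.40, adjusted p = 0.0648). The lists were chosen with earlier results known, and their counts do not set them apart from other lists.

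No gene of these lists was called between KO and WT with DEN or with saline. In the test of the genotype difference with DEN against that at 4 weeks, 6 list genes passed beside Cyp2c70, against 1.08% of all genes: Egfr (-1.38), Ugt2b38 (-1.36) and Hnf4a (-0.59) were lower, and Cyp7a1 (3.15), Cyp51 (0.67) and Urod (0.48) were higher. These are the representative probe sets. Their count is not given as a share, since a gene can stand in several lists, as Cyp7b1 does. Another Ppara probe set passed this test too, at -0.55 (adjusted p = 0.0394), but the representative one, at -0.31, did not. The other 5 tested Egfr probe sets (-1.05 to -0.09) and the other Urod probe set (0.52) were not called, nor were those of Hnf4a, which lay on both sides of 0 (-0.38, -0.36 and 0.43). Between DEN and 4 weeks (background 8.79% of genes in KO, 4.71% in WT), 4 growth hormone signalling genes rose and 2 fell in KO, and 4 rose and 1 fell in WT. Of the male-biased genes 1 fell in KO and 7 of 12 rose in WT. Alas1, the first enzyme of heme synthesis, rose in KO (1.36) and in WT (0.88), with adjusted p-values of 0.00124 and 0.0268; its other probe set was called in KO (1.40) but not in WT (0.99, adjusted p = 0.143). Cyp26a1, a retinoic acid hydroxylase, fell in KO (-1.13) and in WT (-0.66). Ahr fell in WT (-0.72, adjusted p = 0.00498), and Nr1i2 fell in KO (-0.56, adjusted p = 0.00481), each on its representative probe set. The other Ahr probe set was at -1.01 in WT (adjusted p = 0.157) and the other Nr1i2 probe set at -0.0058 in KO (adjusted p = 0.985).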

How the data were processed

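Liver RNA was measured on 18 Affymetrix Mouse430_2 arrays, with 3 in each of 6 groups named by the sample labels. The deposited intensity for each probe set is linear and came from MAS5, per the submitters' processing notes (version not given). Precision is limited by the number of arrays. After removal of 64 control probe sets, 16 was added to each signal before log2. Probe sets at or above the 40th percentile of mean log2 signal (27022) entered limma 3.58.1 in R 4.3.3, with 1 coefficient per group, an intensity trend, and 12 residual and 9.19 prior degrees of freedom, over 12 comparisons. Tests are two-sided, with Benjamini-Hochberg adjustment over all tested probe sets. SE is that of the fitted difference (n = 3 arrays per group). The fit was first tested on simulated data with known changes.

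Members follow the symbol rule, and gene positions are those of GRCm38. Several probe sets of a gene are lettered in the order of their identifiers. Array values are printed for members called between genotypes or in both DEN against 4-week comparisons, and for fixed representatives of each subfamily; Cyp4a10, one of these, is only on a probe set of several genes. Other members shown by array were added after their values were seen. The members, the marker sets and the 9 gene lists (AHR, CAR and PXR, PPAR-alpha, male-biased, female-biased, growth hormone signalling, electron transfer and heme, other P450 families, phase 2) were chosen with earlier results of these data known. Of a list gene, the tested probe set of highest mean signal is counted.

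Replicate numbers were checked for pairing: in 0 of 15 pairs of groups did all 3 same-numbered arrays have deviations correlated over 0.1. Alternatives were quantile normalization, centred array medians, another number added or filter, no trend, array weights, a replicate block, fitting the compared groups alone, omitting the saline arrays, those of highest Gapdh ratio or probe sets named _x_at or _s_at, 1 probe set per gene, and leaving out each array.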

Additional observations from a re-analysis of the deposited data

Results flagged for a closer look

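The difference between KO and WT for Cyp2c70 was not the same with DEN as at 4 weeks. The direct test of that change gave -0.79 (adjusted p = 0.0111) on the log2 scale, from a difference of 0.01 with DEN and 0.80 at 4 weeks. With saline the change since 4 weeks was -0.52 (adjusted p = 0.999), and DEN against saline gave -0.27 (adjusted p = 0.64). With quantile-normalized values these were -0.41 and -0.37 (adjusted p = 0.547 for the latter), and neither was called. The change was thus not shown to be particular to DEN. Cyp2c70 is the only member for which 2 such effects were told apart by a test.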

How the results depend on the processing

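Of the 78 member differences called on the deposited scale, 67 were in comparisons with the saline arrays, and these depended on the normalization. With quantile-normalized values the members called were 4 in KO and 2 in WT for DEN minus saline, and 7 in KO and 8 in WT for saline minus 4 weeks. Called differences took the opposite sign on that scale for DEN minus saline in KO for Cyp3a11 (-0.16), Cyp2j5 (-0.13), Cyp2c29 (-0.022), Cyp2d10 (-0.10), Cyp2c50 (-0.13), Cyp2c70 (-0.071) and Cyp3a25 (-0.20), and in WT for Cyp3a11 (-0.15), Cyp2c29 (-0.10), Cyp2d10 (-0.036), Cyp2c50 (-0.14), Cyp3a25 (-0.087) and Cyp2d26 (-0.084). For saline minus 4 weeks they did so in KO for Cyp3a11 (0.081), Cyp2c29 (0.043), Cyp2c50 (0.056), Cyp2c37 (0.11) and Cyp3a25 (0.10), and in WT for Cyp3a11 (0.19), Cyp2c29 (0.10), Cyp2c37 (0.15), Cyp3a25 (0.12) and Cyp2d26 (0.21). No other setting turned a called difference round. With centred array medians 0 members were called for the DEN against 4-week genotype difference and 2 for DEN minus 4 weeks in KO. Without the intensity trend 1 was called between genotypes at 4 weeks, 0 for the DEN against 4-week genotype difference, 2 in KO and 0 in WT for DEN minus 4 weeks, and 12 in WT for saline minus 4 weeks. A filter at the 60th percentile gave 2 for the DEN against 4-week genotype difference, the compared groups alone gave 1 for DEN minus 4 weeks in WT, and 1 probe set per gene gave 2 for DEN minus 4 weeks in KO. Without the 6 saline arrays 1 was called between genotypes at 4 weeks and 2 for DEN minus 4 weeks in KO. Without the arrays of highest Gapdh ratio 1 was called between genotypes at 4 weeks, and 1 in KO and 0 in WT for DEN minus 4 weeks. Quantile normalization apart, the shares of all tested probe sets called under these settings are not given. A changed count is therefore not a result about the members alone. The causes were not tested.

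Leaving out 1 array at a time, the members called ranged from 1 to 2 between genotypes at 4 weeks and for the DEN against 4-week genotype difference, and stayed at 0 for the other 4 genotype comparisons. They ranged from 1 to 5 in KO and 0 to 4 in WT for DEN minus 4 weeks, from 12 to 16 in KO and 9 to 14 in WT for DEN minus saline, and from 14 to 19 in KO and 13 to 17 in WT for saline minus 4 weeks. With the replicate number as a block, which the pairing check did not bear out, 15 members were called for DEN minus saline in KO in place of 16, and the other 11 counts were unchanged. For these fits too the shares of all tested probe sets are not given. The ranges therefore do not set the members apart from the whole array. Faint members such as Cyp1a1, Cyp1b1 and Cyp2b9 lay near the filter, and with 3 arrays per group their differences were not resolved.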
